A study of Homo sapiens with 17 samples.

Results

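Intron sites deep in coding genes are positions where engaged RNA polymerase was listed inside an intron of a protein-coding gene, well away from any start or exon. A position of the deposited tables was taken when it lay on the strand of a GENCODE release 29 protein-coding gene on chromosomes 1 to 22 and outside every annotated exon of that strand. It also had to lie more than 50 bp from any exon end and more than 1000 bp downstream of the nearest upstream transcript start. This left 39040 distinct positions out of 149498 on these chromosomes and 158141 in all, in 7020 of the 19019 annotated coding genes (36.9%). The same position can appear in several tables, and the tables held 44834 such rows.

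The values come from time-variant precision run-on sequencing of HEK293 cells, an adherent line made from human embryonic kidney. Permeabilised cells were allowed to run on for 0.5, 2, 8 or 32 min in a buffer with the detergent sarkosyl or in one without it, each in 2 replicates, so 16 of the 17 samples fall into 4 series. A series is 1 table, for 1 buffer and 1 replicate number, with a pausing time per position; the remaining sample, labelled "Trp treatment", was not analysed here. All groups share the cell line, and the labels name no genotype and no drug in the 16 run-on libraries. The sample numbers of the sarkosyl and the sarkosyl-free libraries form separate blocks. The buffer therefore cannot be told apart from anything else that differed between these sets of libraries. The labels do not say whether replicates were separate cultures, so p-values measure only the spread between these series, which may be technical.

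RNA polymerase II transcribes introns together with exons, and most of the length of a long human gene is intron. After release from the pause just downstream of the start, the polymerase speeds up over the first part of the gene, and it can stop again at single bases along the way. Run-on methods read the 3′ end of the nascent RNA, and the longer the polymerases at a base take to leave, the longer the pausing time fitted there. Sarkosyl removes most chromatin proteins but leaves transcribing polymerase on the template.

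The base at a site could be read only where a RefSeq promoter window of GRCh38.p14 covers it, which held for 224 of the 39040 positions (0.574%), 127 on the strand of the RefSeq gene and 97 on the other. Of these, 6 that were listed in all 4 series are shown, each as 25 bases of RNA-strand sequence with the site itself in capitals. They show the base at which the signal sits, and the choice did not cover every chromosome.

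MOV10, chr1:112674199-112674223, plus strand: acataagccgatGtggcagagaaaa
TMEM223, chr11:62787240-62787264, minus strand: gcgcccaccggcGggcggggcggct
FBXO31, chr16:87383999-87384023, minus strand: cagtctaacgttTtgcactcggcat
AC135178.2, chr17:8376774-8376798, minus strand: tgaacagcgctgCacggtgtccgcg
ZNF790, chr19:36838452-36838476, minus strand: gcagttaaagacGgcccaggctccg
AC007731.5, chr22:20437868-20437892, minus strand: cagggagccgatGtggaatttcctg

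In 5 of these 6 windows the site was C or G, and 5 had G at offset -3, counted from the site at 0. The windows of MOV10, an RNA helicase gene, and AC007731.5 were identical over 11 consecutive aligned bases that include the site, although they lie on different chromosomes. The site in FBXO31, which encodes an F-box protein of a ubiquitin ligase, was a T. This FBXO31 site had pausing times of 5.13 and 2.00 in the sarkosyl series against 1.32 and 2.83 in the sarkosyl-free series, so the buffers overlapped. The MOV10 site had 2.25 and 1.42 against 3.55 and 6.71, longer in both sarkosyl-free series.

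Over the 224 positions with a window, 58.0% were C and 39.3% were G, together 97.3%. Among 11486 exon positions of coding genes, read through GENCODE transcripts, the figure was 97.2%. Positions were taken to count from 1 because the sites are then mostly C or G, so these joint shares are not a separate result. Around the 224 sites, G made up 53.1% of bases at offset -3 and C 46.4% at offset -1, against 31.1% G and 28.1% C at offsets 7 to 12 on both sides. These windows are promoter sequence of another annotated start, rich in C and G, so they are not a sample of introns. The balance of C and G differed between series: C took 75.6% and 69.3% of such intron sites with sarkosyl (n = 90 and 75), and 49.4% and 13.3% without it (n = 77 and 60). At the exon positions C took 83.1% and 81.1% with sarkosyl, and 53.4% and 19.1% without it. In the exon positions, G sites had longer times than C sites in every series, with C minus G at -0.83, -0.24, -0.68 and -1.23 on the log2 scale. In the intron positions C minus G was 0.64, -0.06, -0.14 and -0.96, so sarkosyl replicate 1 went the other way, with medians of 1.92 at C and 1.23 at G. The tables therefore sample different bases, and the part of this in the differences between series described next was not tested.

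Deep intron sites took a smaller share of the tables with sarkosyl. They numbered 7269 and 9143 with sarkosyl (15.8% and 20.3% of the sites on chromosomes 1 to 22), and 17975 and 10447 without it (28.96% and 26.9%). The means were 18.1% ± 3.19 and 27.9% ± 1.47 (SD, n = 2 series each), a difference of -9.85 percentage points, and the shares of the buffers did not overlap. The two-sided exact permutation p was 0.333, the smallest that 2 series against 2 can give. Exon sites away from splice sites took 5.86% and 6.72% of the sarkosyl tables, against 7.82% and 8.88% of the others. A position that the authors' processing left out and a position without polymerase cannot be told apart, since the tables hold no read numbers and the depth is unknown.

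Intron sites had median pausing times of 1.64 and 1.49 in the sarkosyl series, against 2.38 and 10.0 in the sarkosyl-free series, in the authors' unit, which is not stated in the sources used here. The quartiles ran from 0.972 to 3.79 and from 1.08 to 2.39 in the sarkosyl series, and from 0.681 to 6.49 and from 3.82 to 21.3 in the others. On the log2 scale the sarkosyl series lay 1.64 lower (0.65 ± 0.10 against 2.29 ± 1.47, SD, n = 2; two-sided exact permutation p = 0.333). The sarkosyl-free replicates differed from each other by more than this, so the size of the difference rests on single series: it was -0.60 without sarkosyl-free replicate 2 and -2.68 without sarkosyl-free replicate 1. In the 50% of sites with the smallest quartile ratio it was -3.51. Single values are uncertain: the ratio of the authors' upper to lower quartile of the rate at an intron site had a median of 2.84, 3.42, 3.48 and 2.14 in the 4 series.

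**Figure D1:**
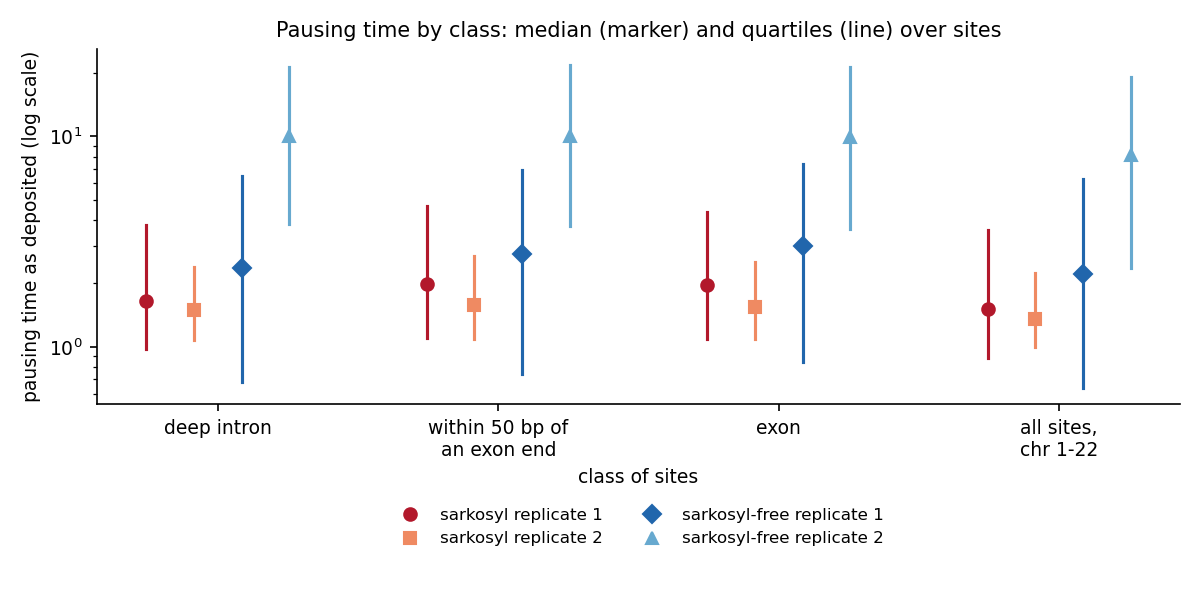
Pausing time as deposited, on a log axis, for deep intron sites, sites within 50 bp of an exon end, exon sites and all sites of chromosomes 1 to 22; markers are medians over sites and lines run from the lower to the upper quartile, 1 colour per series. The classes of a series sit close together, while sarkosyl-free replicate 2 is high in every class (intron median 10.0).

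Introns were compared with the exons of coding genes and with the stretches next to splice sites, in each series separately. Intron sites had slightly shorter times than exon sites in 3 of 4 series, with log2 differences of -0.26, -0.05 and -0.34, and nearly equal times in sarkosyl-free replicate 2 (0.01). The mean difference was -0.16 ± 0.16 (SD, n = 4 series), a ratio of 0.895, with a two-sided exact sign-flip permutation p of 0.25 and 0.625 after Benjamini-Hochberg adjustment over the 5 such comparisons. With 4 series this test cannot reach 0.05. The mean was -0.024 in the 50% of sites with the smallest quartile ratio and -0.072 within genes. Against sites within 50 bp of an exon end the differences were -0.28, -0.08, -0.22 and 0, with a mean of -0.15 ± 0.13 (SD, n = 4; exact p = 0.25, adjusted 0.625). That second difference turned to 0.04 when only sites more than 5000 bp from the upstream start were used, and was -0.0052 when only starts of the host gene were counted. Both means were about the size of their SD over the series, and neither passed the test.

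Intron sites differed in 1 direction from sites near a transcript start inside the same gene. Such a start could belong to any transcript on the strand, of that gene or another. In genes with both an intron site and a site within 300 bp downstream of a start, the gene's median intron time exceeded its start-proximal one by a median of 0.29 and 0.26 with sarkosyl (1986 and 1984 genes), and by 0.25 and 0.56 without it (2895 and 1602 genes). The intron value was the higher one in 58.6%, 61.5%, 54.1% and 58.4% of these genes. The sign was thus the same in all 4 series, and the difference within genes was smaller than the interquartile range of the intron sites themselves. Genes are not independent replicates, and this comparison was added after the data were seen, so it has no p-value. Exon sites and sites within 50 bp of an exon end were not set against start-proximal sites in this way. Whether the difference is particular to introns was thus not tested.

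At the limits of the rule, the sites 801 to 1000 bp from the nearest upstream start, just outside it, had medians of 1.55, 1.38, 3.10 and 7.87. Those 1001 to 1200 bp away, just inside, had 1.65, 1.51, 2.79 and 9.17. Sites 31 to 50 bp from an exon end had medians of 2.22, 1.48, 2.49 and 10.9, and those 51 to 70 bp away had 1.74, 1.59, 2.14 and 10.6. According to RefSeq starts, 133 of the intron positions (0.341%) lay within 1000 bp downstream of a start that GENCODE does not give.

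Distance into the gene separated the buffers in where sites were listed. With sarkosyl, 52.6% and 47.4% of intron sites lay within 10 kb of the gene start, against 32.1% and 30.7% without it (50% ± 3.69 and 31.4% ± 0.985, SD, n = 2; difference 18.6 percentage points, two-sided exact permutation p = 0.333). Beyond 50 kb the sarkosyl series had 14.8% and 18.5% of their sites and the sarkosyl-free series 24.4% and 21.7%. Median distances were 9.07 and 11.2 kb in the sarkosyl series against 19.5 and 18.4 kb in the sarkosyl-free series. These count from the outermost annotated start of the gene. From the nearest upstream start of any transcript the medians were 4.43 and 4.81 kb against 6.90 and 7.19 kb. The host genes were longer as well, with medians per site of 42.4 and 47.2 kb against 60.1 and 56.0 kb.

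The same split held within 1 fixed set of genes. In the 912 coding genes over 100 kb with a site of any class in every series, 24.1% and 21.6% of intron sites lay within 10 kb of the start with sarkosyl, against 12.5% and 12.3% without it. Counted per length of eligible intron in these genes, sarkosyl replicate 1 fell from 61.7 sites per Mb at 1 to 5 kb to 5.39 at 50 to 100 kb, a ratio of 11.4. Sarkosyl replicate 2 fell from 76.5 to 9.96, a ratio of 7.69. Without sarkosyl the fall was from 92.0 to 25.2 and from 42.4 to 15.1, ratios of 3.65 and 2.81. Beyond 200 kb the density was between 2.01 and 7.76 sites per Mb. The steeper fall with sarkosyl lay before the bin of 10 to 25 kb. From 10 to 25 kb to 50 to 100 kb the ratios were 2.39 and 1.57 in the sarkosyl series against 1.51 and 1.91 in the others, and the buffers overlapped. The density did not fall at every step, since sarkosyl replicate 1 had 5.39 sites per Mb at 50 to 100 kb and 5.79 at 100 to 200 kb. The share of C sites and the number of intron sites per table also separated the buffers, and their part in this result was not tested. The number of all sites on chromosomes 1 to 22 did not separate them, at 45938 and 44976 with sarkosyl and 62065 and 38853 without it.

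**Figure D2:**
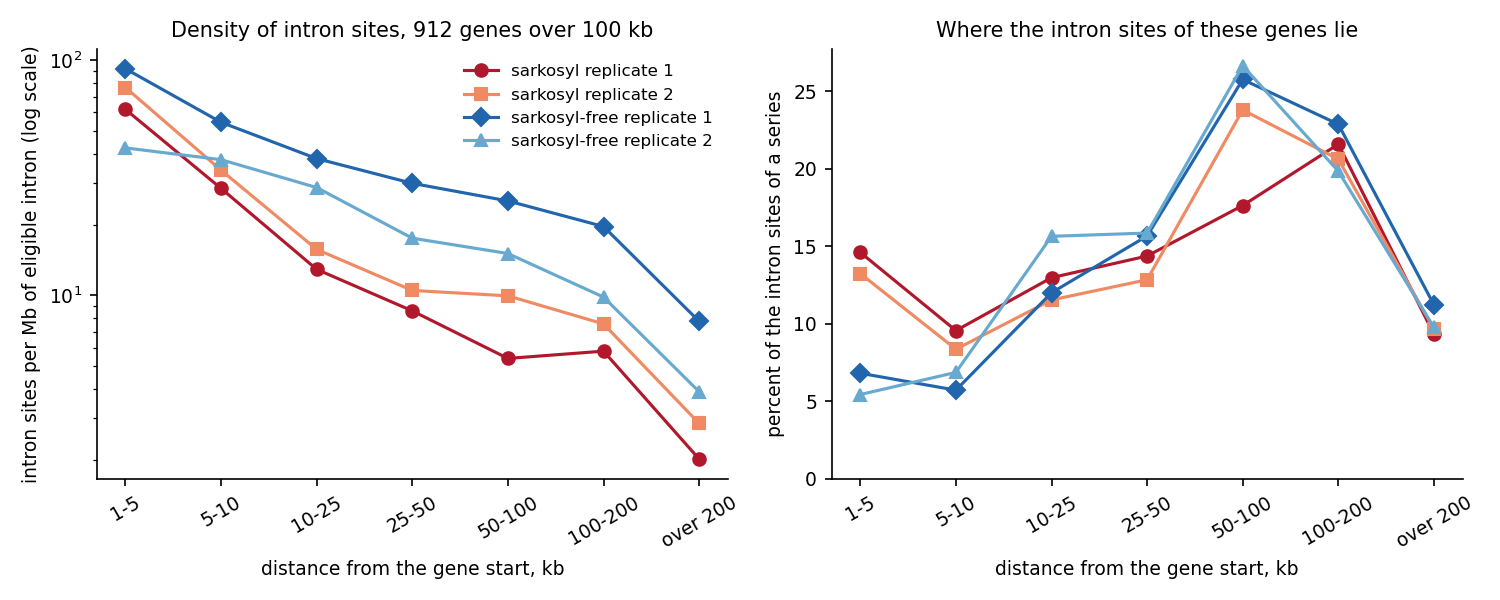
Intron sites in the 912 coding genes over 100 kb that had a site in every series, by distance from the gene start in kb: sites per Mb of eligible intron on a log axis (left) and the percent of each series' intron sites (right), 1 line per series. The first bin holds 14.6% and 13.2% of sites with sarkosyl and 6.80% and 5.42% without it.

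Relative to gene length, the first 20% of the gene held 34.5% and 32.8% of intron sites with sarkosyl and 26.6% and 24.6% without it, and the last 20% of its length held 10.8% to 13.4% in the 4 series. Within an intron stretch, meaning a run of the gene that no annotated exon covers, sites were spread almost evenly. The first 20% of the stretch held 19.7% to 22.6% and the last 20% of it 16.3% to 18.1%. The first stretch of the gene held 21.5% and 20.1% of sites with sarkosyl, and 15.0% and 13.8% without it.

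The contrast of pausing time by distance from the gene start had no common sign across the series. Sites over 50 kb into the gene minus those up to 10 kb gave -0.17, -0.08, -0.19 and 0.17 on the log2 scale, a mean of -0.07 ± 0.16 (SD, n = 4; exact sign-flip permutation p = 0.375, adjusted 0.625). With limits of 100 and 25 kb the mean was -0.12. Measured from the nearest upstream start of any transcript it was -0.21, more than 1.5 times the value from the gene start and negative in all 4 series, which gives the smallest p that 4 series allow. Spearman's rho between time and distance across sites was -0.024, -0.029, -0.025 and 0.052, given as a description since sites of a gene are not independent. By bin, all 4 series lay below their own intron median at 100 to 200 kb (-0.23, -0.05, -0.17 and -0.03). The same held over 200 kb (-0.15, -0.16, -0.0034 and -0.06), while at 25 to 50 kb all 4 lay above it, by 0.0024 to 0.15. These bins were picked out after their values were seen and were given no test. Sarkosyl-free replicate 2 stood apart: its sites at 1 to 5 kb were 0.26 below its own median, while those of the other series were 0.04, 0.03 and 0.12 above theirs. Within genes holding both kinds, far minus near was 0.15, -0.14, -0.27 and 0.16 over 111, 239, 439 and 181 genes, with no common sign. First-stretch minus later-stretch sites gave -0.03, 0.04, 0.01 and -0.07 (mean -0.01 ± 0.05, SD, n = 4; exact p = 0.75, adjusted 0.75).

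The contrast by gene length had no common sign either. Sites in genes over 100 kb minus those in genes under 25 kb gave -0.20, -0.06, -0.28 and 0.24, a mean of -0.07 ± 0.23 (SD, n = 4; exact sign-flip permutation p = 0.5, adjusted 0.625). With limits of 200 and 50 kb the mean was -0.16. Spearman's rho between time and gene length was -0.028, -0.024, -0.036 and 0.042. The 1 bin in which all 4 series fell below their own intron median by more than 0.1 was that of intron stretches over 50 kb. There 444, 558, 1355 and 692 sites lay -0.34, -0.15, -0.32 and -0.12 from it. This bin was picked out after its values were seen and was given no test.

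**Figure D3:**
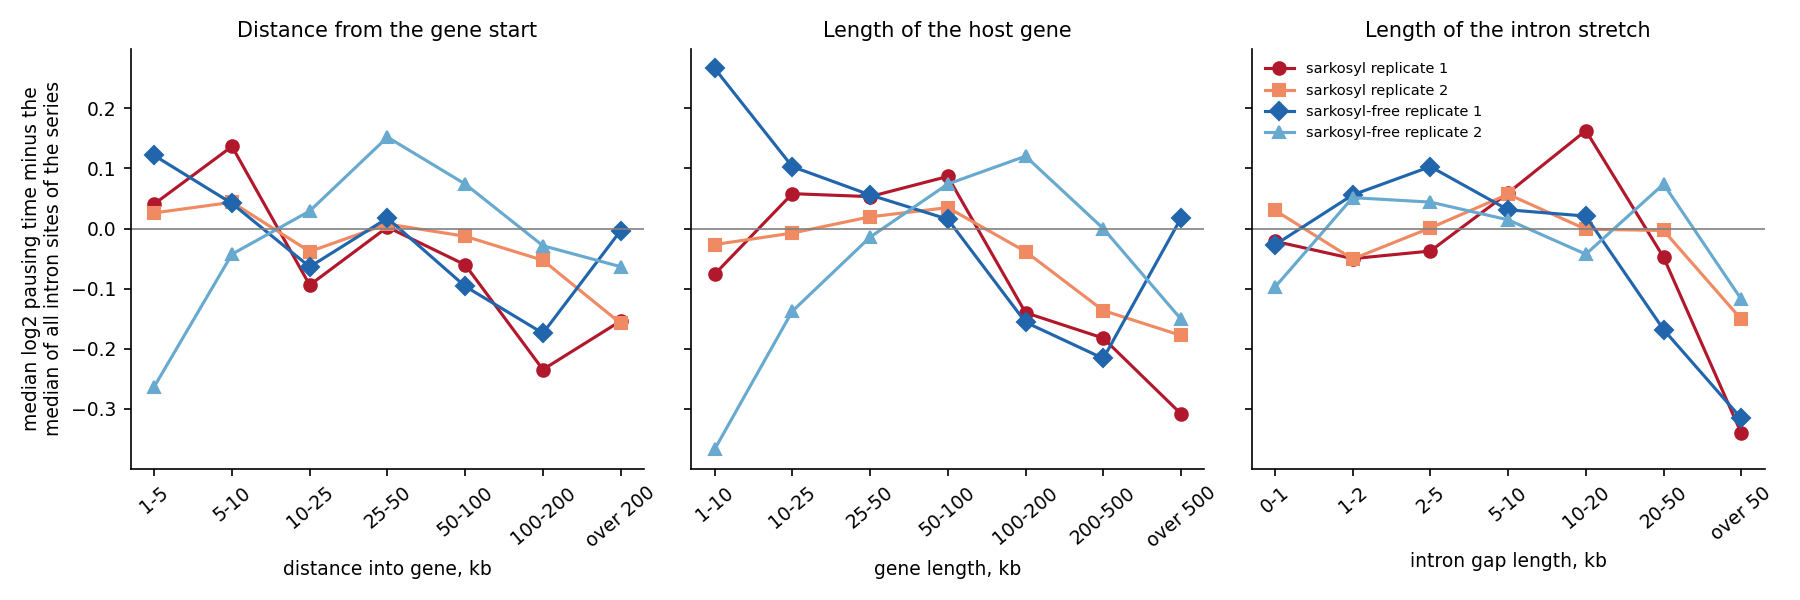
Median log2 pausing time of deep intron sites in bins of distance from the gene start, host gene length and intron stretch length (all in kb), minus the median of all intron sites of the same series; 0 is that median and each line is 1 series. The series cross over most bins. All 4 lie below 0 in the last bin of stretch length, between -0.34 and -0.12, and in the bins of distance beyond 100 kb.

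Longer genes held an intron site more often, at a lower density. Of genes of 1 to 10 kb that had any listed site, 18.2% to 21.6% had a deep intron site, against 47.2% to 77.8% of genes of 100 to 200 kb. Density fell from 202.5 to 283 sites per Mb of eligible intron in genes of 1 to 10 kb to 1.43 to 3.02 in genes over 500 kb. The site deepest in its gene was in PTPRD, a receptor tyrosine phosphatase gene on chromosome 9, in 3 of 4 series. There sites lay 1776 kb from the gene start, though 20913 to 20921 bp from the nearest upstream start of any transcript. Their times were 5.68 and 4.93 in the sarkosyl series at positions 8836855 and 8836863, and 0.443 at the latter position in sarkosyl-free replicate 1. In sarkosyl-free replicate 2 the deepest was in RBFOX1, a splicing regulator gene on chromosome 16, 1402 kb in at position 6641780, with a time of 3.19. That site lay 68013 bp from the nearest upstream start of any transcript.

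Few intron positions recurred. Of the 39040 positions, 87.6% were in 1 series, 10.6% in 2, 1.31% in 3 and 0.553% (216 positions in 169 genes) in all 4. The sarkosyl series shared 2012 positions, 27.7% of the first and 22.01% of the second. The sarkosyl-free series shared 2253, 12.5% and 21.6% of each. A pair across buffers shared 558 to 829. Spearman's rho of the times at shared positions was 0.589 within sarkosyl, 0.376 within sarkosyl-free and 0.056 to 0.153 across buffers. For exon sites these were 0.608, 0.383 and -0.039 to 0.109, close to the intron values. The sarkosyl series shared 32.9% and 29.3% of their exon sites.

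The 216 intron sites found in all 4 series had a median host gene of 57.5 kb and a median distance of 12.5 kb, and 25.9% lay beyond 50 kb. Their times ran from 0.374 to 21.7 and from 0.478 to 14.3 with sarkosyl (medians 1.34 and 1.36), and from 0.177 to 22.2 and from 0.163 to 43.5 without it (medians 1.46 and 1.92). Replicates agreed within 2-fold at 162 of the 216 sites with sarkosyl (75%) and at 94 without it (43.5%). The sarkosyl-free times thus spread further in both directions and were repeated less closely.

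**Figure D4:**
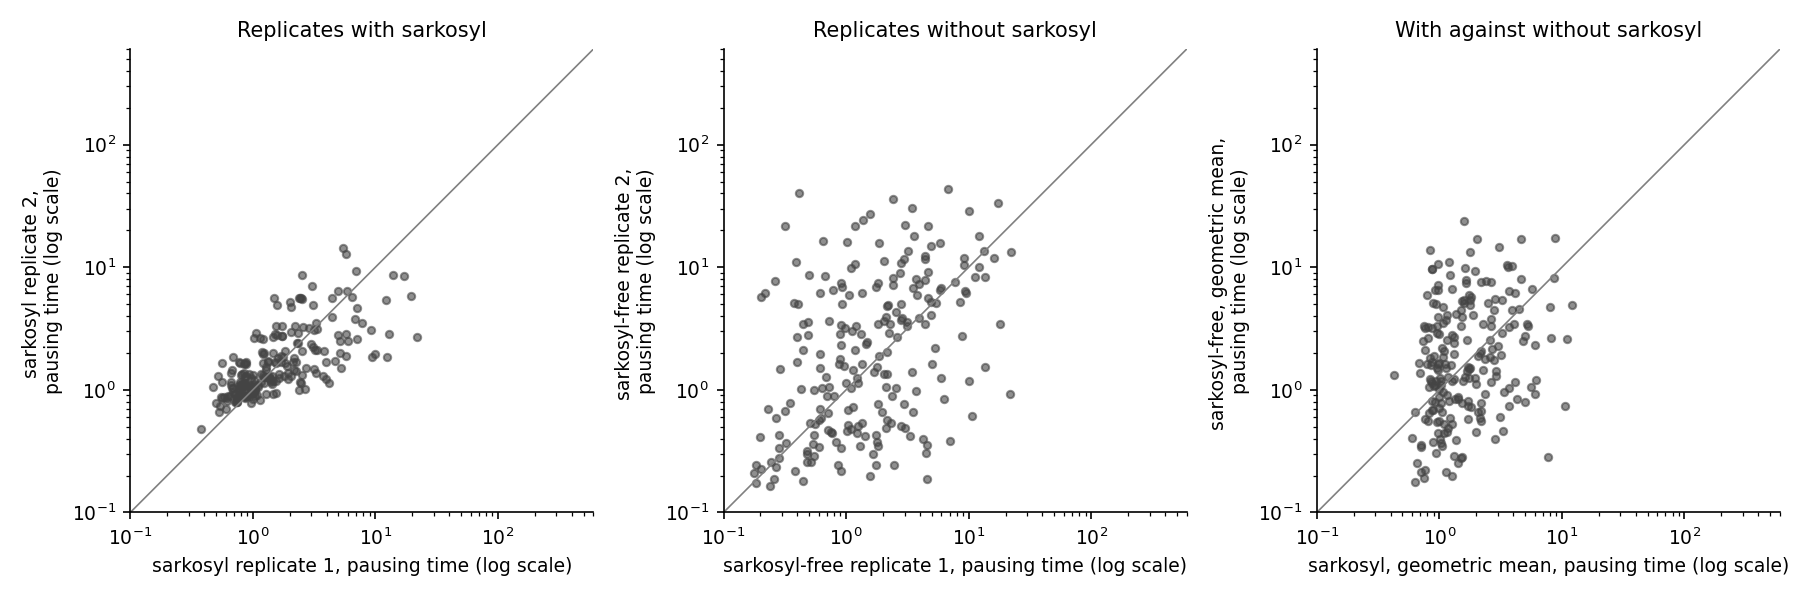
Pausing times (log axes) of the 216 deep intron sites listed in all 4 series: sarkosyl replicate 2 against 1, sarkosyl-free replicate 2 against 1, and the geometric mean of each buffer against the other, with the line of equality. Points follow the line most closely within sarkosyl (162 of 216 within 2-fold) and spread most along the sarkosyl-free axes.

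Single sites were compared between buffers with limma, fitted on all 2967 positions of the 4 tables that were in every series, with the median of each series over them set to 0. With Benjamini-Hochberg adjustment at 0.05, 0 of the 216 intron sites and 0% of all 2967 were called. At an unadjusted p under 0.05 there were 42 of 216 (19.4%; 22 longer and 20 shorter with sarkosyl), against a background of 23.2% of all sites. The centred values of the buffers did not overlap, with sarkosyl longer, at 61 intron sites (28.2%, background 31.6%), and with sarkosyl shorter at 57 (26.4%, background 25.7%). The intron shares are near the background in each case. Without sarkosyl-free replicate 1 the same fit called 108 of 216 intron sites and 1597 of all, and without sarkosyl-free replicate 2 it called 45 and 660. In those fits the lone sarkosyl-free series is assumed to vary like the sarkosyl ones, and without either sarkosyl series 0 were called.

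The 3 intron sites with the smallest p all had short times with sarkosyl. In SPTBN1, which encodes a non-erythroid spectrin, the site at position 54559999 on the plus strand of chromosome 2 lies 103.7 kb into the gene. It is 1605 bp from the nearest upstream start of any transcript. The sarkosyl series gave 0.686 and 1.03 there and the sarkosyl-free series 16.1 and 11.9, so the buffers were apart in every series. The centred log2 difference was -3.91 (SE 0.74, limma adjusted p = 0.155). In SPEN, a large RNA-binding corepressor gene, the site at 15849901 on chromosome 1, plus strand, 2.04 kb in, had 1.24 and 2.00 with sarkosyl against 17.2 and 33.3 without it. In CKAP2, a gene of the mitotic cytoskeleton, the site at 52467443 on chromosome 13, plus strand, 12.01 kb in, had 0.864 and 0.884 against 9.09 and 10.4. Their log2 differences were -3.79 (SE 0.77) and -3.34 (SE 0.71), also with an adjusted limma p of 0.155.

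Other sites were long in all 4 series, or short in all 4, and were picked for it. Among the sites long in all 4 was 1 in SNRPB, which encodes an Sm core protein of the spliceosome, at position 2462318 of chromosome 20, 8.54 kb into the gene. Its times of 2.50, 8.62, 3.56 and 17.9 were each above at least 59.8% of the intron sites of their series. A site in RPL37A, a ribosomal protein gene, had times of 5.43, 14.3, 22.2 and 13.3 at 216505085 on chromosome 2. The other 3 were in AC015813.2, C21orf58 and SLIT2. The shortest were 2 sites in KCTD2, 2 in CROCC and 1 in VAC14. In KCTD2, a BTB-domain gene, the site at 75035144 of chromosome 17 had times of 0.535, 0.742, 0.183 and 0.174, each within the lowest 1.53% of its series. CROCC encodes rootletin, a protein of the ciliary rootlet, and its site at 16861980 of chromosome 1 had times of 0.531, 0.661, 0.230 and 0.701. VAC14 is the scaffold of a phosphoinositide kinase complex, and its site at 70779050 of chromosome 16 had 0.620, 0.818, 0.321 and 0.370.

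Sites were unevenly spread over genes. A gene had a median of 2 intron sites in a series where it had any, 1998 genes (28.5%) had 1 position in all, and the 702 genes with most rows held 45.0% of rows. HNRNPA2B1, which encodes an hnRNP protein that binds nascent RNA, had the most, with 52 and 62 sites with sarkosyl and 71 and 60 without it (chromosome 7, 26173057 to 26201529, minus strand). Its median times were 1.71, 1.40, 5.46 and 9.88. SLIT2, a secreted axon guidance ligand, had 12 and 19 sites with sarkosyl and 124 and 69 without it, so both sarkosyl-free counts exceeded both sarkosyl ones. SPEN had 32 and 27 with sarkosyl against 62 and 56, and AC015813.2 had 31 and 36 against 44 and 44. All intron sites split the same way, at 7269 and 9143 with sarkosyl against 17975 and 10447 without it. The counts of these genes were not scaled to those totals.

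In several genes with many sites, those sites were packed together. PCBD2, a pterin dehydratase gene, had 6 positions listed in all 4 series. The middle 80% of its 152 rows lay within 3486 bp of its 103 kb, and its median times were 0.957, 1.08, 1.57 and 0.754. HFM1, a meiotic helicase gene, had 5 such positions, and the middle 80% of its rows lay within 223 bp. ANKRD30BL had 4, and the middle 80% of its rows spanned 1199 bp. In PID1 and SLCO5A1, each with at least 10 sites in every series, that span was 175 and 159 bp. HNRNPA2B1 had 3 such positions, and the middle 80% of its rows spread over 11537 bp of its 28.5 kb.

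In PCBD2, 70 of the 82 positions overlapped mitochondrial-type pseudogenes annotated on the opposite strand. Such pseudogenes covered 85 intron positions in all, in PCBD2, AGBL4, AKAP6 and KIAA0825, 6 of them among the 216. The sites in them were -0.78, -0.44, -0.38 and -3.61 from the intron median of their series on the log2 scale. How the authors placed reads that match near-identical copies is not given in the sources used here. The part of such copies in the packed sites of PCBD2, HFM1, ANKRD30BL, PID1 and SLCO5A1 was not tested.

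Packing was then counted across all genes. A position with at least 10 other intron positions within 250 bp on its strand was called an island position, a definition made after these genes were seen. There were 473 such positions (1.21%) in 28 genes, among them HNRNPA2B1 with 54, PCBD2 with 49 and ANKRD30BL with 47. They made up 14.4% of the positions found in all 4 series (31 of 216) and 0.690% of those found in 1 series. Median times in islands were 1.13 and 1.09 in the sarkosyl series against 2.18 and 4.61 in the others, which is -0.53, -0.46, -0.12 and -1.12 from the intron medians. They were thus below the intron median in every series.

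**Figure D5:**
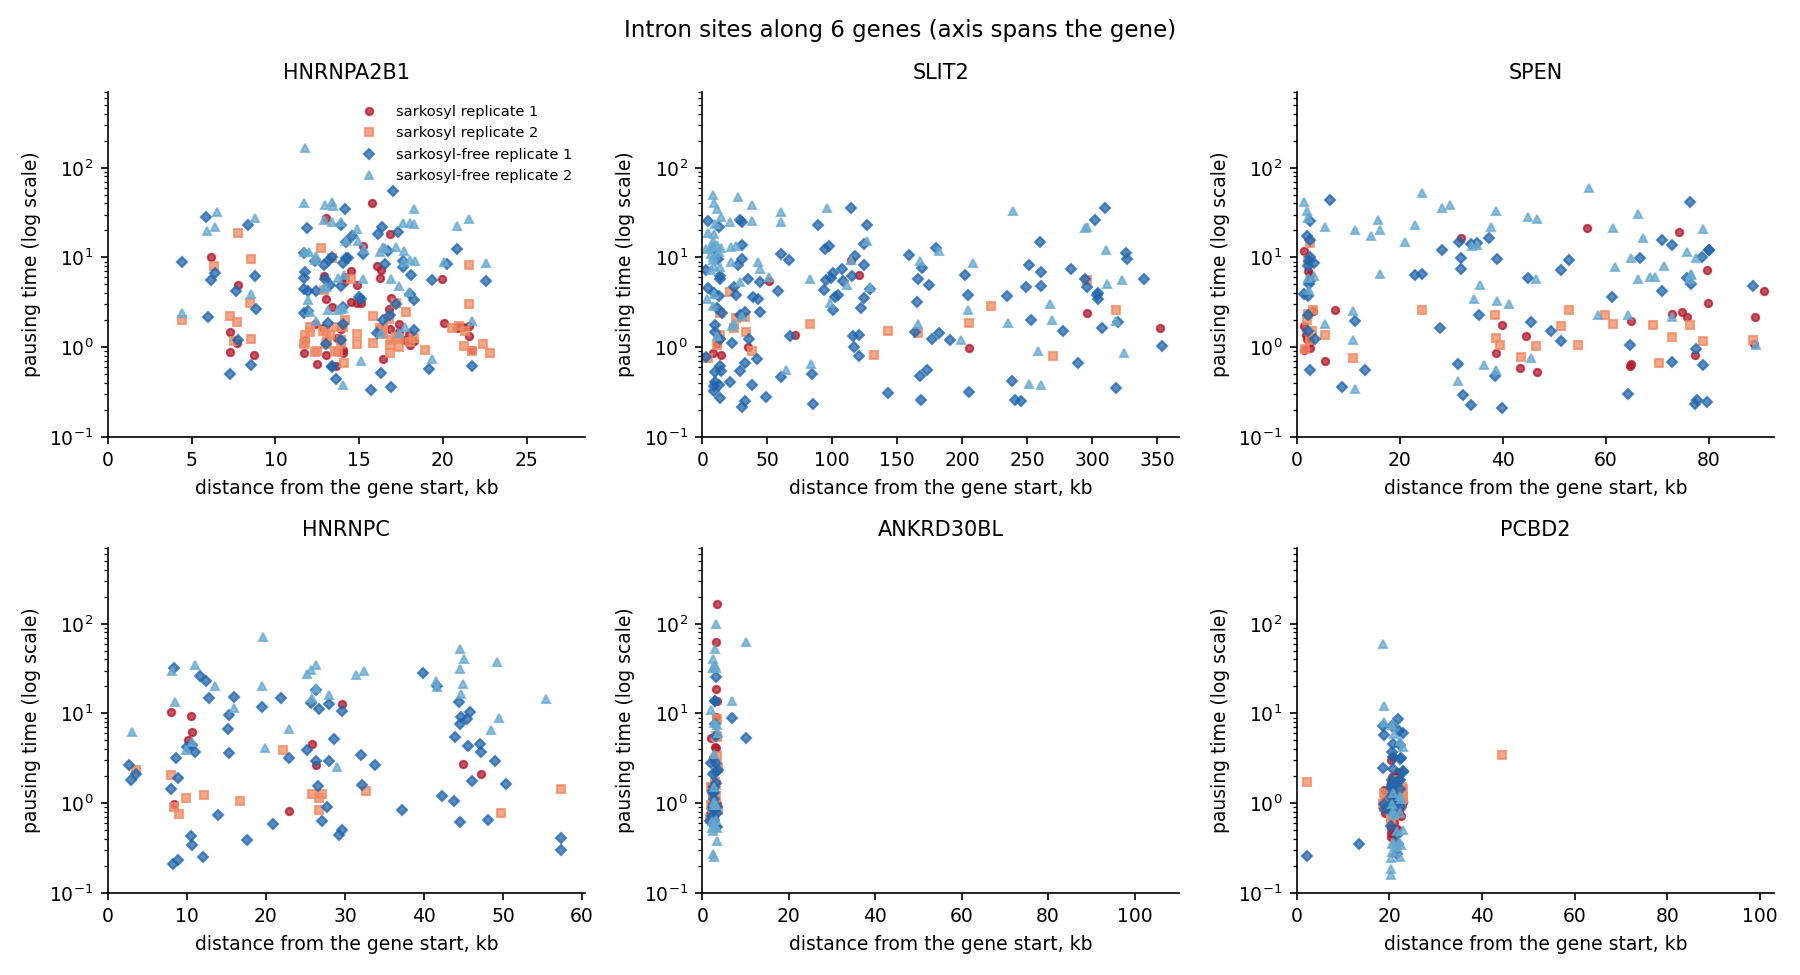
Pausing time (log axis) of each deep intron site against its distance from the gene start in kb, in 6 genes; the horizontal axis spans the whole gene and each colour is 1 series. Sites run along HNRNPA2B1, SLIT2, SPEN and HNRNPC, though HNRNPA2B1 also held 54 island positions. Sites pile up at a median of 2.81 to 2.83 kb in ANKRD30BL and 20.8 to 21.0 kb in PCBD2.

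Among the 41 genes with at least 10 intron sites in every series, those with the highest and lowest medians are given as a description. HNRNPC, another hnRNP gene, had 11, 15, 66 and 32 sites and median times of 4.55 and 1.25 in the sarkosyl series against 3.19 and 19.8 in the others. Relative to the series medians it stood at 1.47, -0.26, 0.43 and 0.99 on the log2 scale, so 1 sarkosyl replicate went the other way. HSP90B1, a chaperone of the endoplasmic reticulum, was above the median in all 4 series, at 0.67, 0.20, 1.37 and 0.20, and so was PHIP, at 0.57, 0.75, 0.66 and 0.18. RBM39, a splicing factor, and EIF2S2, a subunit of translation initiation factor eIF2, averaged 0.53 and 0.49 and were each below the median in 1 sarkosyl series. The lowest were PCBD2, SLCO5A1, CROCC, PID1 and ANKRD30BL, with averages from -1.39 to -1.07, and each was below the median in all 4 series.

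The 5 longest genes with an intron site in every series held few. RBFOX1, at 2474 kb, had 4 and 4 sites with sarkosyl and 3 and 6 without it, and 3 of its 7 positions were in all 4 series. CTNNA3, an alpha-catenin gene of 1784 kb, had 8 positions, the middle 80% of rows within 66.4 bp, and median times of 6.37, 2.49, 9.35 and 6.73. ROBO2, a receptor for SLIT proteins, had 1 position, the same in all 4 series, with times of 0.997 and 0.946 in the sarkosyl series against 3.94 and 3.86 in the others. CSMD1 had 3 positions and RUNX1, a transcription factor gene, had 11.

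Gene groups were described by fixed lists, with medians relative to that of all intron sites of the series, and against 36.9% of all coding genes having an intron site. That background was not matched to the lists for gene length or for having any listed site. Since longer genes held an intron site more often, the shares of the lists are not read as traits of their functions. Of 39 chromatin regulators, 33 had one, with 479 rows, led by ARID1A, a SWI/SNF subunit, with 31, and the chromodomain helicase CHD2 with 29. Their medians were 0.28, -0.04, -0.43 and 0.36. Of 39 RNA processing genes, 35 had one, with 726 rows, of which 124 were in HNRNPC, 63 in RBM39 and 53 in SON, a nuclear speckle protein gene. Their medians were 0.22, -0.13, 0.51 and 0.23.

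Ubiquitin ligases and deubiquitinases had sites in 36 of 38 genes (277 rows, 61 of them in the ligase gene UBE3C), with medians of -0.10, 0.16, -0.21 and 0.45. Cytoskeleton and trafficking genes had them in 32 of 37 (317 rows, 54 in ACTN4, an actin crosslinker), with medians of -0.06, 0.03, -0.96 and 0.21. Kinases, phosphatases and GTPase regulators had them in 37 of 40 (318 rows, 63 in PRKDC, the catalytic subunit of a DNA repair kinase), with medians of -0.18, -0.20, 0.17 and 0.18. Cell adhesion and neuronal long genes had them in 20 of 39 (88 rows, 17 in the SLIT receptor gene ROBO1), with medians of -0.72, -0.57, 0.26 and -1.32 over 13, 13, 38 and 24 sites. No list kept 1 sign in all 4 series.

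As a check of the cell line, 9 of 12 genes often reported in HEK293 cells had a site of any class in at least 1 series. VIM had 65 rows and KRT8 had 21, and 3 genes (PAX2, LHX1 and NEFM) had none. Blood cell genes had a site in 1 of 11, with 1 row in PTPRC, and none of the 8 liver or 8 muscle and fibroblast genes had one. Within single series, 7, 6, 8 and 7 of the 12 HEK293 genes and 0, 1, 0 and 0 of the 11 blood cell genes had a site. The background within single series was 36.5% to 45.2% of all coding genes.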

How the data were processed

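Each deposited table gives, per the file headers, quartiles and a median of an estimate per position and strand and a pausing time. The values are in a unit of the authors' own (other than a count, with no read numbers), and the pausing time was the reciprocal of the median, here called the rate, in every row. Rates are rounded by the authors, so long times take few distinct values. The submitters' processing notes name cutadapt 1.14, HISAT2 2.1.0, SAMtools, bedtools and the build hg38; the caller, the model and the time unit are not given in the sources used here. A table was tied to a buffer and replicate by its name, and the number of value columns without a group was 0.

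Positions were annotated with GENCODE 29 on GRCh38 and times were put on a log2 scale (pandas 2.3.3 and numpy 2.4.6 under Python 3.11.15; tests with scipy 1.17.1, plots with matplotlib 3.10.9). Positions were taken to count from 1 because the bases at the sites were then mostly C or G. Where a site lay in more than 1 coding gene (4.70% to 5.86% of a series), the gene with the nearest upstream start was used. Class differences were medians per series, tested over 4 series by an exact sign-flip permutation and between buffers by an exact permutation, all two-sided. Single sites were fitted with limma 3.58.1 in R 4.3.3, tested on simulated data first.

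Named were the 3 sites with the smallest p (none passing), the 5 longest and 5 shortest in all series by rank, the deepest per series, and the 5 genes highest on each of 5 counts or medians. The members and lists were chosen with earlier results of these data known. The planned test by base needs a genome and was not run. Alternatives covered the margins, gene-level values, filters on clustered, uncertain or extreme sites, scaling, a replicate block and leaving out each series. The named-gene rule selected 1 gene that is not reported here.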

Additional observations from a re-analysis of the deposited data

Results flagged for a closer look

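A pair of descriptions had opposite signs in the buffers, in every series, and the difference was not tested. The pair was picked by its values, from a search of the contrasts, distance bins, gene lists and named genes for this pattern. How many such patterns a search of that size gives by itself was not worked out. Intron sites in kinase, phosphatase and GTPase regulator genes stood -0.18 and -0.20 from the intron median with sarkosyl and 0.17 and 0.18 without it, on the log2 scale. With each gene counted once, the medians were 0.024, -0.20, 0.013 and 0.27, so the opposite signs held over pooled sites and not over genes. Intron sites of AC015813.2 stood -0.45 and -0.38 from it with sarkosyl and 1.40 and 0.50 without it.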

How the results depend on the processing

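No planned test here can pass 0.05 except limma's, so alternatives were judged by sign. Of 97 alternatives to 8 values, 89 kept the sign and 8 changed it. The intron minus splice-near difference became 0.042 beyond 5000 bp from the start. Far minus near became 0.034 in the 50% of sites with the smallest quartile ratio, where long-gene minus short-gene also became 0.033, and the latter was 0.0040 without sites that had another within 50 bp. First-stretch minus later-stretch became 0.020 with 1 value per gene, 0.0030 without clustered sites, 0.0062 without sarkosyl-free replicate 2 and 0.129 within genes. Leaving out 1 series at a time moved it between -0.031 and 0.0062. The share of sites within 10 kb and its alternatives were added after the data were seen, and its difference stayed between 7.69 and 21.2 percentage points. Intron sites called by limma numbered 0, but 4 with the replicate block, 5 after quantile normalization, 7 with normal scores of ranks, and 0 to 108 when 1 series was left out. Replicate differences of the buffers correlated at 0.013 over all shared sites and 0.0046 over intron sites, so single sites showed no replicate effect common to the buffers. The labels do not say whether the replicate numbers pair the series. Of all 2967 shared sites the block called 161, quantile normalization 158 and normal scores of ranks 231, against 4, 5 and 7 of the 216 intron sites. The counts for all sites thus moved as well. Read depth, which is unknown, limits which intron sites could be listed. The alternatives to the test by base at the site were not run, since that test was not.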
